A study of Mus musculus with 4 samples.

Results

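The genes examined here encode proteins that build, load or release exosomes: the tetraspanins Cd63, Cd9, Cd81, Cd82 and Cd151, the sorting factors Tsg101, Pdcd6ip and Sdcbp, the membrane scaffold protein Flot1 and the small GTPase Rab27a. These 10 genes were taken by name, as common protein markers of exosomes, and all 10 were found among the 42977 genes of the deposited table. What was sequenced is RNA from the vesicle preparations, so each value counts reads assigned to a gene and does not measure the marker protein. Whether that RNA lay inside the vesicles was not tested. The vesicles came from the conditioned medium of bone marrow mesenchymal stem cells (MSCs) of male SD rats aged 6 to 8 weeks, used at passages 3 to 4. MSC-Exo are vesicles from cells given DMSO, the solvent, and MSCATV-Exo are vesicles from cells pretreated with 1 µM atorvastatin, a statin that blocks cholesterol synthesis. The labels give the pretreatment once as 24 h and once as 48 h. There were 2 libraries in each group, each from 200 ml of medium, and nothing in the labels ties them to separate animals or cultures. Every SD, SE and p-value below therefore rests only on differences between these libraries, which may be technical. In edgeR each SE and p-value draws on the spread over many genes, not only on that of the gene itself. The samples are registered under mouse, whereas the cells, the build used for alignment and the gene names are of rat, so rat is the species here.

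Exosomes form when the membrane of a late endosome buds inwards to make small vesicles, which leave the cell when the endosome fuses with the plasma membrane. The ESCRT complexes (endosomal sorting complexes required for transport) gather ubiquitin-tagged cargo and cut the buds free. Tetraspanins, which cross the membrane 4 times, organise membrane proteins into patches, and syntenin, encoded by Sdcbp, links syndecan cargo to the ESCRT partner ALIX, encoded by Pdcd6ip. RAB27A brings the loaded endosomes to the plasma membrane. Cholesterol, whose synthesis statins block, is a component of the membrane patches in which tetraspanins and flotillins gather.

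The libraries held 5350295 to 5947020 gene counts. Levels are compared between genes in RPKM, the deposited read counts scaled by gene length and library total. Olfactory receptor genes, which serve odour sensing in the nose, give a reference for genes with no known role in MSCs: the median of 1188 such genes was 1.71 to 2.47 RPKM and their upper quartile 4.35 to 5.34 RPKM. Of these olfactory receptor genes 64.8% to 79.0% had reads in a library. Whether reads at such levels come from mRNA of the gene was not tested, for these or for any other gene. The median of 22633 protein-coding genes was 4.12 to 4.74 RPKM. MSC surface markers were all above the olfactory receptor median in every library (7 of 7), as were the endothelial markers (4 of 4). Of all protein-coding genes 58.9% were above it in all 4 libraries. The median of the MSC surface markers was 5.42 to 7.37 RPKM. Thy1 had 14.7 to 24.2 RPKM and Itgb1 26.9 to 35.7 RPKM, whereas Nt5e had 2.08 to 6.15 RPKM and Cd44 2.85 to 4.15 RPKM. Leukocyte markers had medians of 4.71 to 6.51 RPKM, erythroid markers 4.93 to 6.71 RPKM, platelet markers 4.72 to 7.19 RPKM and endothelial markers 4.74 to 6.01 RPKM, so the median of the MSC surface markers overlapped theirs, and the leukocyte marker Ptprc itself was at 1.15 to 3.69 RPKM. Of these markers Hbb was at 0 in 2 libraries and Pf4 in 1. Among the matrix genes of stromal cells Sparc had 183 to 243 RPKM, whereas Col1a2 was listed at 0 in all 4 libraries. The 8 leukocyte markers summed to 40.3 and 49.3 RPKM in MSC-Exo and 37.3 and 32.8 RPKM in MSCATV-Exo. The platelet markers (21.3 and 26.7 against 18.2 and 17.8 RPKM) and the endothelial markers (22.1 and 26.4 against 18.9 and 21.2 RPKM) also had lower sums in both MSCATV-Exo libraries. The groups overlapped for the erythroid and MSC surface sums. The sum of the 5 matrix genes was higher in both MSCATV-Exo libraries (256.1 and 275.3 against 282.9 and 318.4 RPKM). Within that sum only Sparc was apart between the groups (183 and 200 against 220 and 243 RPKM), and Col1a1, Col3a1 and Fn1 overlapped. Such orders are common: after edgeR normalisation 17.4% of single genes had both MSCATV-Exo libraries under both MSC-Exo libraries, and 16.1% the reverse. RPKM rests on library totals, which put the middle gene of 33480 at a log2 ratio of -0.11, lower in MSCATV-Exo. Of the platelet markers Ppbp was higher (1.59 and 2.12 against 4.30 and 7.10 RPKM), Pf4 and Gp9 were lower and Itga2b overlapped. Ppbp, Pf4 and Gp9 had 31 reads or fewer a library. The part of other cell types in the values below was not tested.

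Cd63 had the highest level of the 10 genes and was above 97.0% to 98.5% of protein-coding genes in every library, at 6.34 to 9.87 times the olfactory receptor median. Measured against that median in all 4 libraries, 8 of the 10 genes lay above it, a property shared by 58.9% of protein-coding genes and by 15.1% of olfactory receptor genes themselves. Cd63, Cd81 and Cd82 lay above the upper quartile of olfactory receptor genes in all 4 libraries, as did 22.5% of protein-coding genes and 2.78% of olfactory receptor genes. Cd63 alone was above 3 times the median, as were 7.98% of protein-coding genes and 0.673% of olfactory receptor genes. The mean levels ran in the order Cd63, Sdcbp, Cd82, Tsg101, Cd81, Pdcd6ip, Rab27a, Flot1, Cd9 and Cd151. Among neighbours in that order, the ranges over the 4 libraries were apart only between Cd63 and Sdcbp at the top and between Cd9 and Cd151, which was listed at 0, at the bottom. The ranges of the other 7 neighbouring pairs overlapped, though Cd81 was above Pdcd6ip in 4 of 4 libraries. Further apart in the order, Cd81 and Cd82 (6.57 and 6.50 RPKM or more) lay wholly above Flot1 and Cd9 (5.84 and 5.85 RPKM or less).

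**Figure D1:**
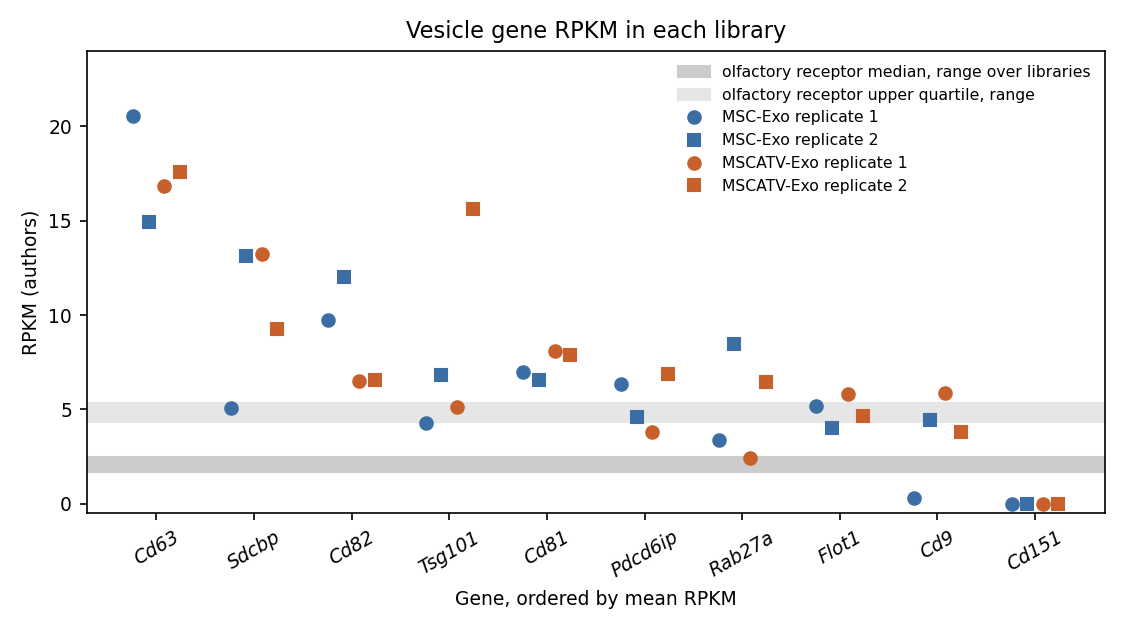
RPKM of each gene (vertical axis) in the 4 libraries, with genes ordered by mean RPKM on the horizontal axis, blue for MSC-Exo, orange for MSCATV-Exo, circles for replicate 1 and squares for replicate 2. The dark and light bands are the range over libraries of the median and the upper quartile of olfactory receptor genes, and all 4 Cd63 points lie between 14.9 and 20.5 RPKM, far above both bands. Cd81 and Cd82 also lie above both bands in every library, while each of the other 6 genes with reads has points within or under the light band.

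Cd63, a tetraspanin of late endosomes and the marker most often used for exosomes (chromosome 7, 3320250 to 3335583, plus strand), had 20.5 and 14.9 RPKM in MSC-Exo and 16.8 and 17.6 RPKM in MSCATV-Exo. The MSCATV-Exo values lay between those of the MSC-Exo pair, so the groups overlapped. Its reads numbered 136 and 99 in the first group against 124 and 122 in the second. Its log2 fold change (MSCATV-Exo over MSC-Exo in edgeR, as for every fold change below) was 0.06 ± 0.40 (SE), and its sign changed, to -0.044, when library totals were used without TMM factors. With a library left out it was -0.14 to 0.29. A lncRNA on the opposite strand, LOC102553109, covers 12135 of the 15334 bases that Cd63 spans. It was listed with 199 and 119 reads in MSC-Exo against 178 and 103 in MSCATV-Exo. The library kit does not mark the strand, so reads from any exon stretch shared by the 2 genes cannot be told apart. The 12135 bases are of whole gene spans with introns, and the overlap of exons was not computed.

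Cd81, a tetraspanin of the plasma membrane (chromosome 1, 216237663 to 216253460, plus strand), had 6.96 and 6.57 RPKM in MSC-Exo and 8.08 and 7.86 RPKM in MSCATV-Exo. Both MSCATV-Exo libraries were above both MSC-Exo libraries, and the replicates of each group were close together. Its log2 fold change was 0.34 ± 0.58 (SE), from 55 and 52 reads against 71 and 65. The annotated span of Cttn, on the other strand, encloses all of Cd81, and Cttn was listed at 0 in all 4 libraries.

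Cd82, a tetraspanin known as a suppressor of metastasis (chromosome 3, 82324344 to 82368846, minus strand), had 9.72 and 12.0 RPKM in MSC-Exo and 6.50 and 6.56 RPKM in MSCATV-Exo. Both MSCATV-Exo libraries were lower than both MSC-Exo libraries. It was the 1 gene of the 10 with this order, and no gene overlaps it in the annotation. As normalised CPM (reads scaled to the library total with TMM factors) the means were 22.1 ± 3.55 (SD, n = 2) and 14.3 ± 0.775, a log2 fold change of -0.63 ± 0.44 (SE). The direction held with each library left out, at -0.80 to -0.46. The leukocyte tetraspanin Cd37, the nearest of 91 other vesicle genes to Cd82 in its level over the 4 libraries (root mean square difference of 0.20 in log2(RPKM + 1)), had 9.38 and 8.92 RPKM in MSC-Exo and 6.82 and 6.55 RPKM in MSCATV-Exo. Cd37 was picked by this nearness, so its similar values are no separate observation.

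Cd9, a tetraspanin of the cell surface that takes part in membrane fusion (chromosome 4, 157977163 to 158010091, minus strand), had 2 and 28 reads in MSC-Exo against 41 and 25 in MSCATV-Exo. The value of MSC-Exo replicate 1 was 0.317 RPKM, under the olfactory receptor median of that library, and the other 3 libraries had 3.79 to 5.85 RPKM. The counting intervals of the MSC-Exo pair were far apart (95% exact Poisson, 0.242 to 7.22 and 18.6 to 40.5 reads). The log2 fold change of 1.12 ± 1.28 (SE) became 0.22 without that library, and 3.97 without MSC-Exo replicate 2, when the library with 2 reads stood alone for its group. Counting intervals leave out every other source of error, and reads that carry no molecular identifier may be copies of the same molecule.

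Cd151, a tetraspanin that binds laminin-receptor integrins (chromosome 1, 214446659 to 214450668, plus strand), was listed with 0 reads in all 4 libraries. At its length of 2097 bases, a gene at the olfactory receptor median would have had 21.3 to 27.7 reads in these libraries. Of 13325 protein-coding genes about as long or longer (2000 bases or more), 2.38% were listed at 0 in all 4. The neighbourhood of Cd151 was unusual in the same way. It is 1 of 12 consecutive annotated genes, from Pddc1 to Chid1 (chromosome 1, 214389006 to 214511569), of which 10 were at 0 in all libraries. The other 2 were Slc25a22, with 4 reads in all, and the tetraspanin gene Tspan4, with 8. Rplp2, which encodes a protein of the large ribosomal subunit, and Polr2l, which encodes a subunit of RNA polymerase II, are needed by every cell and stood at 0 there too.

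The annotation places a second set of 12 genes in the same order and on the same strands further up chromosome 1, from 213952099 to 214074663, mostly described as "-like" copies. LOC100911730, described as CD151 antigen-like (214009687 to 214013762), starts 436972 bases before Cd151, and the other 11 pairs have starts 436901 to 442352 bases apart. LOC100911730 was also at 0 in all 4 libraries, as was LOC100911766, the copy of Tspan4. Of the 12 copies 5 were at 0, and the remaining 7 held 463 reads. The copy of Pidd1 had 116 and 94 of these in MSC-Exo against 46 and 124 in MSCATV-Exo. The copy of Rplp2 had 10 and 10 against 11 and 5, and that of Polr2l had 7, all in MSC-Exo replicate 1. The 23 other protein-coding genes in this neighbourhood had mean levels of 5.27 to 17.9 RPKM. How reads that match more than 1 place were counted is not given in the sources used here, and whether they account for these zeros was not tested. The level of Cd151 RNA is therefore uncertain, and the gene enters no test below. It is part of the tetraspanin sum and of the count against the olfactory receptor level, where it stands at 0. These pairs were chosen after their values had been seen.

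**Figure D2:**
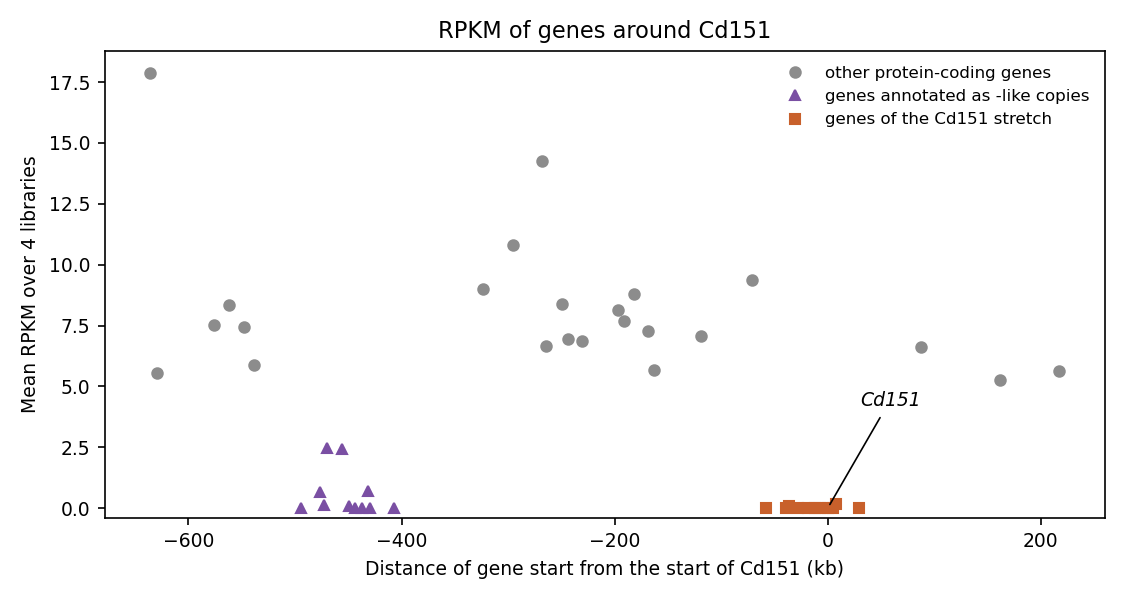
Mean RPKM over the 4 libraries (vertical axis) of protein-coding genes by the distance of their start from that of Cd151 in kilobases (horizontal axis), with orange squares for the 11 protein-coding genes of the Cd151 stretch, purple triangles for their 11 annotated copies and grey circles for 23 other genes. The orange squares lie at or near 0 (up to 0.15 RPKM), the copies reach at most 2.46 RPKM and the grey circles lie at 5.27 RPKM or more.

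Of the sorting factors, Sdcbp had the highest mean level. The scaffold protein it encodes, syntenin, is a binding partner of CD63 and of ALIX (chromosome 5, 19471664 to 19498499, plus strand). It had 5.08 and 13.2 RPKM in MSC-Exo and 13.2 and 9.28 RPKM in MSCATV-Exo. MSC-Exo replicate 1 was low, and the other MSC-Exo library was level with the highest MSCATV-Exo library. Its log2 fold change was 0.41 ± 0.51 (SE) and went to -0.13 without MSC-Exo replicate 1 and to 1.27 without MSC-Exo replicate 2.

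Tsg101 encodes the ESCRT-I subunit that recognises ubiquitin-tagged cargo (chromosome 1, 102941151 to 102971017, minus strand). It had 4.30 and 6.84 RPKM in MSC-Exo and 5.12 and 15.6 RPKM in MSCATV-Exo. A single library, MSCATV-Exo replicate 2 with 141 reads, stood high, while the other MSCATV-Exo library with 49 reads lay between the 37 and 59 of MSC-Exo. Tsg101 had a log2 fold change of 0.97 ± 0.64 (SE), which was 0.044 without that high library.

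Pdcd6ip, the gene of ALIX, which joins ESCRT-I to the ESCRT-III filament (chromosome 8, 121916233 to 121973145, minus strand), had 6.36 and 4.58 RPKM in MSC-Exo and 3.80 and 6.88 RPKM in MSCATV-Exo. The lowest and the highest library were both of MSCATV-Exo. For Pdcd6ip the log2 fold change was 0.05 ± 0.38 (SE), -0.036 with library totals, and -0.35 to 0.37 with a library left out.

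Flot1 encodes flotillin-1, a scaffold of lipid rafts (chromosome 20, 3427890 to 3438418, minus strand). It had 5.19 and 4.00 RPKM in MSC-Exo and 5.84 and 4.65 RPKM in MSCATV-Exo, and the groups overlapped. Flot1 had a log2 fold change of 0.30 ± 0.68 (SE), from 37 to 60 reads a library, and 0.06 to 0.52 with a library left out.

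Rab27a, whose product docks the loaded endosomes (chromosome 8, 79722334 to 79776228, plus strand), had 3.38 and 8.45 RPKM in MSC-Exo and 2.44 and 6.46 RPKM in MSCATV-Exo. Replicate 2 was about as far above replicate 1 in each group, by 2.50 times in MSC-Exo and 2.65 times in MSCATV-Exo, and the groups overlapped. Its log2 fold change of -0.34 ± 0.58 (SE) turned to 0.48 without MSC-Exo replicate 2 and to 0.16 without MSCATV-Exo replicate 1.

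None of the 9 genes with reads passed the edgeR test, in which every one had an adjusted p of 1.00 (0.999917 before rounding), and 0 of 33480 genes passed (0.0%). Unadjusted, 0 of the 9 had a p under 0.05 beside 3.69% of all genes. DESeq2 also called 0 of the 9, against 0.275% of genes, and its smallest adjusted p among them was 0.776 for Tsg101. Of the 9 genes 7 had a log2 fold change above 0 (49.4% of all genes did), with a median of 0.30 against -0.01 over all genes tested. With library totals 5 of 9 were above 0, Cd63 and Pdcd6ip having changed sign, while the median of all genes moved to -0.11. Relative to that shifted median both stayed above it. The libraries of the 2 groups were fully apart for Cd81, higher in MSCATV-Exo (as were 16.1% of all genes), and for Cd82, lower in MSCATV-Exo (17.4%). With 2 of 9 genes apart where 33.5% of all genes were, this share is under the background and is no result about these genes. In RNA from bulk vesicles, fewer vesicles of a kind and less of a transcript per vesicle cannot be told apart.

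Replicates of the same group often differed by more than counting error. Scaled to library totals, the counting intervals of the MSC-Exo replicates did not overlap for 4 of the 9 genes (Cd9, Pdcd6ip, Sdcbp and Rab27a), and those of the MSCATV-Exo replicates did not overlap for 4 (Tsg101, Pdcd6ip, Sdcbp and Rab27a). Among 21854 genes with 96 to 693 reads in all, the range these genes cover, the intervals were apart for 38.8% in MSC-Exo and 45.5% in MSCATV-Exo, so such replicate differences are common in these libraries. The intervals of Cd63, Cd81, Cd82 and Flot1 overlapped in both groups. Summed, the tetraspanins had 37.5 and 38.0 RPKM in MSC-Exo and 37.3 and 35.8 RPKM in MSCATV-Exo. Both MSCATV-Exo sums were lower, an order that 17.4% of single genes had after edgeR normalisation, and RPKM rests on library totals. This sum joins Cd81, higher in MSCATV-Exo, with Cd82, lower there. The sum of Tsg101, Pdcd6ip and Sdcbp was 15.7 and 24.6 RPKM in MSC-Exo and 22.2 and 31.8 RPKM in MSCATV-Exo, with overlapping groups.

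**Figure D3:**
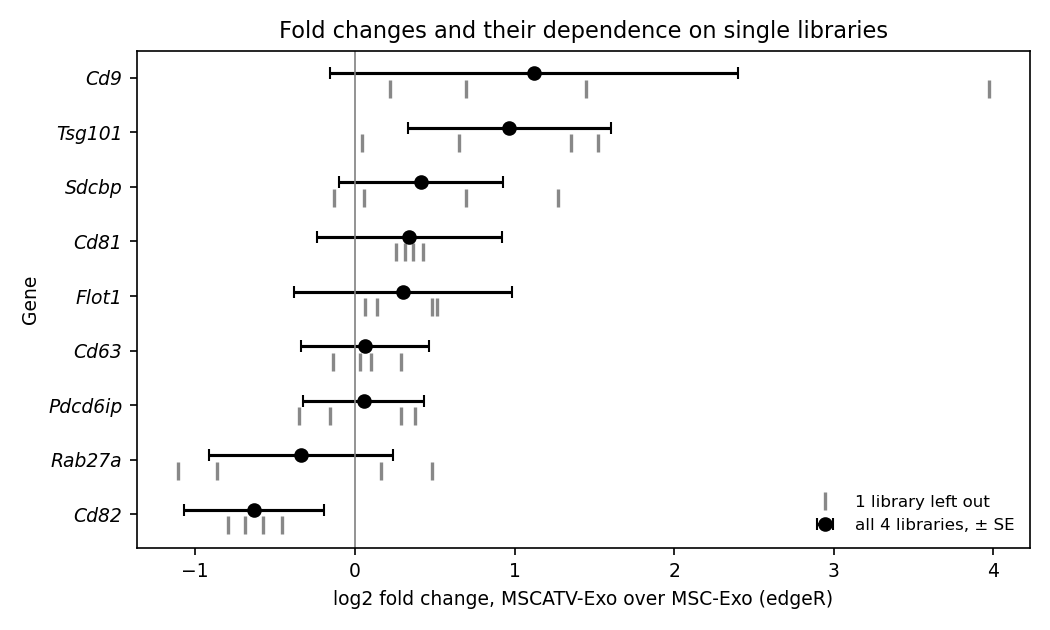
Log2 fold change of the 9 genes with reads (horizontal axis, MSCATV-Exo over MSC-Exo in edgeR, points with SE bars) and the 4 values of each with 1 library left out (grey ticks), genes on the vertical axis. The ticks of Cd81 and Cd82 stay close to their points, and on 1 side of 0, which follows from their groups being apart. Those of Cd9 reach from 0.22 to 3.97, and those of Cd63, Pdcd6ip, Sdcbp and Rab27a lie on both sides of 0.

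The authors' deposited table lists 9 of the 10 genes, without Cd151, and gives 2 of them a q-value under 0.05. These are Cd82, at a deposited log2 ratio of -0.74 with q = 0.00236, and Tsg101, at 0.90 with q = 0.00289. The deposited table gives such a q to 13053 of 38021 genes (34.3%), so 2 of 9 is not above that background. For Tsg101 the deposited ratio rests on the MSCATV-Exo replicate 2 value described above. The deposited q-values of Cd9 and Rab27a were 0.0556 and 0.0714, and those of the other 5 genes were 0.197 or more. The test behind the deposited q-values is not given in the sources used here.

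The wider machinery was read from a list of 82 further genes found in the table, of which 80 were tested. In edgeR 0 rose and 0 fell past the adjusted threshold (smallest adjusted p 1.00). Of the 80 genes 38 had a log2 fold change above 0 and 42 below, with a median of -0.03. Unadjusted, 4 of the 80 had a p under 0.05 in edgeR, near the 3.69% of all genes, and DESeq2 called 0. The groups were apart for 17 of the 80 on the higher side and for 9 on the lower side (16.1% and 17.4% of all genes). By family, 9 of 11 ESCRT-III genes were above 0 (median 0.35), 0 of 3 ESCRT-0 genes (median -0.05) and 2 of 8 ESCRT-I genes beside Tsg101 (median -0.27), where 49.4% of all genes were. Differences between these small families were not tested. ESCRT-II had 1 of 3 above 0, the disassembly and accessory factors 3 of 7, the syndecan and syntenin arm 3 of 8, the docking and release genes 4 of 12, the lipid raft and ceramide genes 2 of 4 and the partners of tetraspanins 5 of 6. The other tetraspanins split evenly, with 9 above and 9 below 0 (median -0.03). With library totals 31 of the 80 were above 0.

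**Figure D4:**
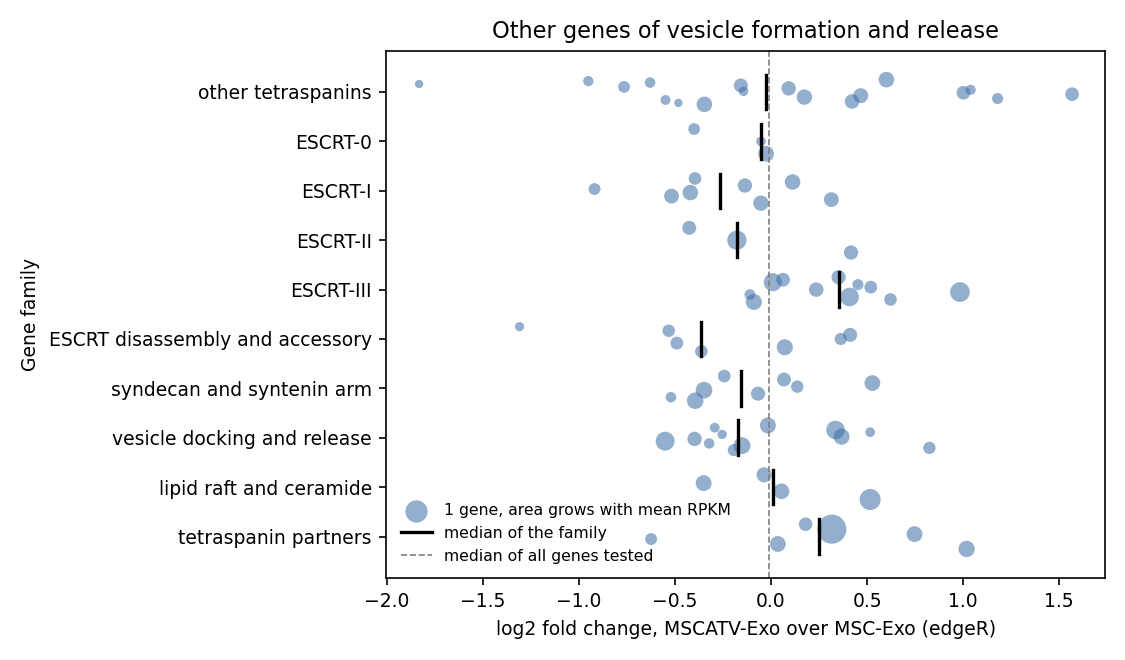
Log2 fold change (horizontal axis, MSCATV-Exo over MSC-Exo in edgeR) of 80 other vesicle genes by family (vertical axis), with point area growing with mean RPKM, black bars for family medians and a dashed line for the median of all genes tested. Most families straddle the dashed line, and ESCRT-III, with a median of 0.35, lies furthest to its right.

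Chmp3, an ESCRT-III subunit of the filament that cuts the bud, had the smallest p of the wider list, with 10.7 and 8.44 RPKM in MSC-Exo and 18.9 and 16.3 RPKM in MSCATV-Exo. Both MSCATV-Exo libraries were well above both MSC-Exo libraries. Its log2 fold change was 0.98 ± 0.33 (SE; 150 and 118 reads against 293 and 238), and it did not pass in edgeR (adjusted p = 1.00) or DESeq2 (adjusted p = 0.157). Igsf8, the gene of an immunoglobulin-family partner of CD9 and CD81, had 4.70 and 7.76 RPKM in MSC-Exo and 14.4 and 8.85 RPKM in MSCATV-Exo (log2 fold change 1.02 ± 0.39, SE, and 0.54 without MSCATV-Exo replicate 1). The tetraspanin genes Tspan17 and Tspan18 were likewise apart between the groups. Tspan17 had 2.61 and 3.62 against 9.27 and 7.90 RPKM (1.57 ± 0.65, SE), and Tspan18 had 3.96 and 4.25 against 9.38 and 5.75 RPKM (1.00 ± 0.37, SE, and 0.53 without MSCATV-Exo replicate 1). On the lower side, among genes with groups apart and with RPKM above the olfactory receptor median in all 4 libraries, the largest values were -0.62 ± 0.41 for Itga6, a laminin-receptor integrin subunit that pairs with CD151, -0.55 ± 0.33 for Rab31, a GTPase of endosomes, and -0.53 ± 0.54 for Vps4b, the ATPase that takes ESCRT-III apart (log2 fold change with SE). With a library left out these were as small as -0.17, -0.26 and -0.32. Outside that RPKM limit, Vta1 (-1.31) and Tspan33 (-0.77) were also lower with groups apart, and Tspan13 (1.18) was higher with groups apart. These genes outside the limit were named after their values had been seen.

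The wider genes with the highest mean levels were Itgb1 (26.9 and 30.8 RPKM against 31.3 and 35.7), Cav1, the gene of caveolin-1 (15.4 and 11.3 against 13.8 and 22.0), Chmp3, the ESCRT-II gene Vps25 (18.2 and 10.3 against 11.3 and 12.1) and Rab31 (15.7 and 14.6 against 7.12 and 12.3). Cav1 was also the nearest of the 91 genes to Cd63, at a root mean square difference of 0.34 in log2(RPKM + 1) over the 4 libraries. For Cd81 the nearest was Tspan9 (0.17) and for Cd9 it was Tspan3 (0.59). Tspan3 had 0.810 RPKM in MSC-Exo replicate 1, where Cd9 was low as well. The nearest genes were picked on these same values, so such likeness follows from the choice. None of the 18408 rows of the non-coding table belonged to any of the 10 genes.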

How the data were processed

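The deposited gene table holds raw counts as whole numbers and RPKM values, which recompute from the counts, the gene lengths and the summed gene counts. Alignment was to rat build rn6 (Rnor_6.0) with TopHat2, per the submitters' processing notes, and the read counter and annotation release are not given in the sources used here. The authors' deposited comparison table gives mean RPKM, a log2 ratio without a pseudocount, a p-value and a q-value per gene.

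The main test was the two-sided quasi-likelihood test of edgeR (version 4.0.16, R 4.3.3) on 33480 genes kept by filterByExpr, with TMM factors and p-values adjusted by Benjamini-Hochberg (threshold 0.05). The SE of each edgeR fold change was worked back from that test, as the absolute log2 fold change divided by the square root of its F statistic. The biological coefficient of variation was 0.559. The script was tested on simulated data. The changed genes there had higher levels and larger changes than the exosome marker genes, so that test does not show what could be detected for them. Alternatives were DESeq2 1.42.0, RLE factors, library totals, no filter on low counts, a filter at 1 CPM on average, the replicate number as a block, each library left out, and limma 3.58.1 on log2(RPKM + 1) or log2(RPKM + 0.1). The floor for a count of 0 was set at 3 reads, or 0.504 to 0.561 CPM. The 95% exact Poisson interval of a count of 0 reaches 3.69 reads.

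The genes and lists were chosen with earlier results of these data known. All 10 genes were named. From the wider list were named those with an unadjusted p under 0.05, the 3 largest fold changes each way with groups apart and RPKM above the olfactory receptor median, the 5 highest mean RPKM and the nearest gene to each tested tetraspanin. Of 83 symbols of the wider list Cavin1 was not found under that symbol. Tspan4 and Rab5a did not pass the filter. No sequence was used, because the reference sequences given were of mouse and not of rat.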

Additional observations from a re-analysis of the deposited data

How the results depend on the processing

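None of the 9 genes with reads was called under any of 13 alternatives. Of their 117 alternative values 103 kept the direction and 14 changed it. With library totals Cd63 went to -0.044 and Pdcd6ip to -0.036 (log2 fold change). With limma they went to -0.024 and -0.059 at a pseudocount of 1, also when genes under 1 RPKM on average were left out, and to -0.024 and -0.075 at 0.1. Over the libraries left out Cd63 was at -0.14 to 0.29, Pdcd6ip at -0.35 to 0.37, Sdcbp at -0.13 to 1.27 and Rab27a at -1.11 to 0.48, while Vps25 went from -0.52 to 0.27 and Tspan3 from -0.33 to 2.23. These were the 2 changes of direction among 169 alternative values of 13 other named vesicle genes. The cause was not tested. The number of genes called was 0 in edgeR, 95 in DESeq2, 8 with no filter on low counts, 4 with the replicate block and 1 to 168 with a library left out (168 without MSCATV-Exo replicate 2). Same-numbered libraries did not deviate together (correlation -0.000516 over 33480 genes), so the block rests on a shared number only, and it called 0 of the 9. The median of the wider list, -0.03, was -0.15 and -0.18 with limma at pseudocounts of 1 and 0.1 (-0.15 also without genes under 1 RPKM on average), where that of all genes moved alike, from -0.01 to -0.12 and -0.16, and -0.10 to 0.12 with a library left out, 0.12 being without MSC-Exo replicate 2. The number of genes above the olfactory receptor level was 8 at the median, 3 at the upper quartile and 1 at 3 times the median. With a library left out, its group's lone sample is assumed to vary like the other group.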
